A study of Mus musculus with 4 samples.

Results

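The hypoxia-inducible factor (HIF) pathway was examined in MC38, a mouse colon cancer line, through 35 genes: the HIF subunits, the enzymes that sense oxygen, and targets of HIF outside glycolysis. The members were the rows of the deposited expression table whose gene name matched a given list, and all 35 were found once among 36445 genes. Polyadenylated RNA was sequenced from cells given 5-fluorouracil (5-FU, a pyrimidine analogue used in chemotherapy) at 1 mM for 24 h and from cells given PBS for 24 h, with 2 libraries in each group. Both groups were the same line in the same medium with serum, and no genetic change is named in the labels. The labels do not say whether replicates were separate cultures, so p-values measure only the spread between these libraries, which may be technical.

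HIF is a dimer of an oxygen-labile alpha subunit, encoded by Hif1a or Epas1, and a stable partner encoded by Arnt. When oxygen is present, the prolyl hydroxylases encoded by the Egln genes mark the alpha subunit for the VHL ubiquitin ligase, and the asparagine hydroxylase encoded by Hif1an blocks its coactivator contact. When oxygen is scarce or the hydroxylases are inhibited, the dimer binds a short core sequence and raises genes of vessel growth, acid export, mitophagy and collagen modification, and the subunit is controlled mainly as protein.

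Levels are FPKM, fragment counts scaled to exon length and library size. The 5-FU libraries were shallower, since steps in the FPKM values gave estimates of 20.8 M and 20.6 M fragments in 5-FU and 41.3 M and 41.6 M fragments in PBS. The 2 PBS libraries differed more, with a median absolute log2 difference over all tested genes of 0.0729 between the 5-FU libraries and 0.271 between the PBS libraries. The 9 epithelial markers checked (Epcam, Cdh1, Krt8, Krt18, Cdx2 among them) were each below 1 FPKM in every library, summing to 1.87 and 1.74 FPKM in 5-FU and 0.78 and 1.53 FPKM in PBS. The mesenchymal marker Vim stood at 1069 and 1036 FPKM in 5-FU and 973 and 889.7 FPKM in PBS and did not pass (limma adjusted p = 0.278). Of the 6 mesenchymal markers, S100a4 rose, with 429 and 455 FPKM in 5-FU and 246 and 163 FPKM in PBS, and Cdh2 and Zeb1 did not pass. Fn1 fell, with 227 and 218 FPKM in 5-FU and 389 and 588 FPKM in PBS, as did Twist1, with 15.6 and 14.7 FPKM in 5-FU and 25.5 and 28.6 FPKM in PBS (limma adjusted p = 0.0144 for S100a4, 0.0155 for Fn1 and 0.00747 for Twist1). Their part in the results was not tested. The defining epithelial genes of colon were thus near 0 in these libraries, although the line is labelled as colon cancer. Of the leukocyte markers reported, Ptprc, Cd3e, Itgam and Adgre1 were at or near 0, whereas Cd68 had 17.95 and 16.0 FPKM in 5-FU and 6.29 and 19.3 FPKM in PBS. Of 5 endothelial and erythroid markers, Hba-a1 alone passed 1 FPKM, at 3.31 and 2.81 FPKM in 5-FU and 2.50 and 1.60 FPKM in PBS. In bulk RNA, fewer cells expressing a gene and less RNA per cell cannot be told apart.

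After 5-FU, most expressed HIF targets were lower. Of the 35 members, 30 passed the filter for testing (at least 1 FPKM in at least 2 libraries), of which 22 fell and 2 rose, and the other 6 did not pass. Over all 11644 tested genes, 31.2% were lower and 22.1% were higher by the same rule, a limma test on log2(FPKM + 1) with a Benjamini-Hochberg adjusted p under 0.05. A fall of at least 1 log2 was reached by 20 members, against 15.7% of all tested genes. The median log2 difference was -1.65 over the tested members and -0.10 over all tested genes. A member that passes the filter only through the group where it is high is bound to differ, which applies to Adm and Ppp1r3c, high in PBS, and to Angptl4, high in 5-FU. Summed over all 35 members, the level was 526 and 528 FPKM in the 5-FU libraries and 1655 and 2656 FPKM in the PBS libraries.

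**Figure D1:**
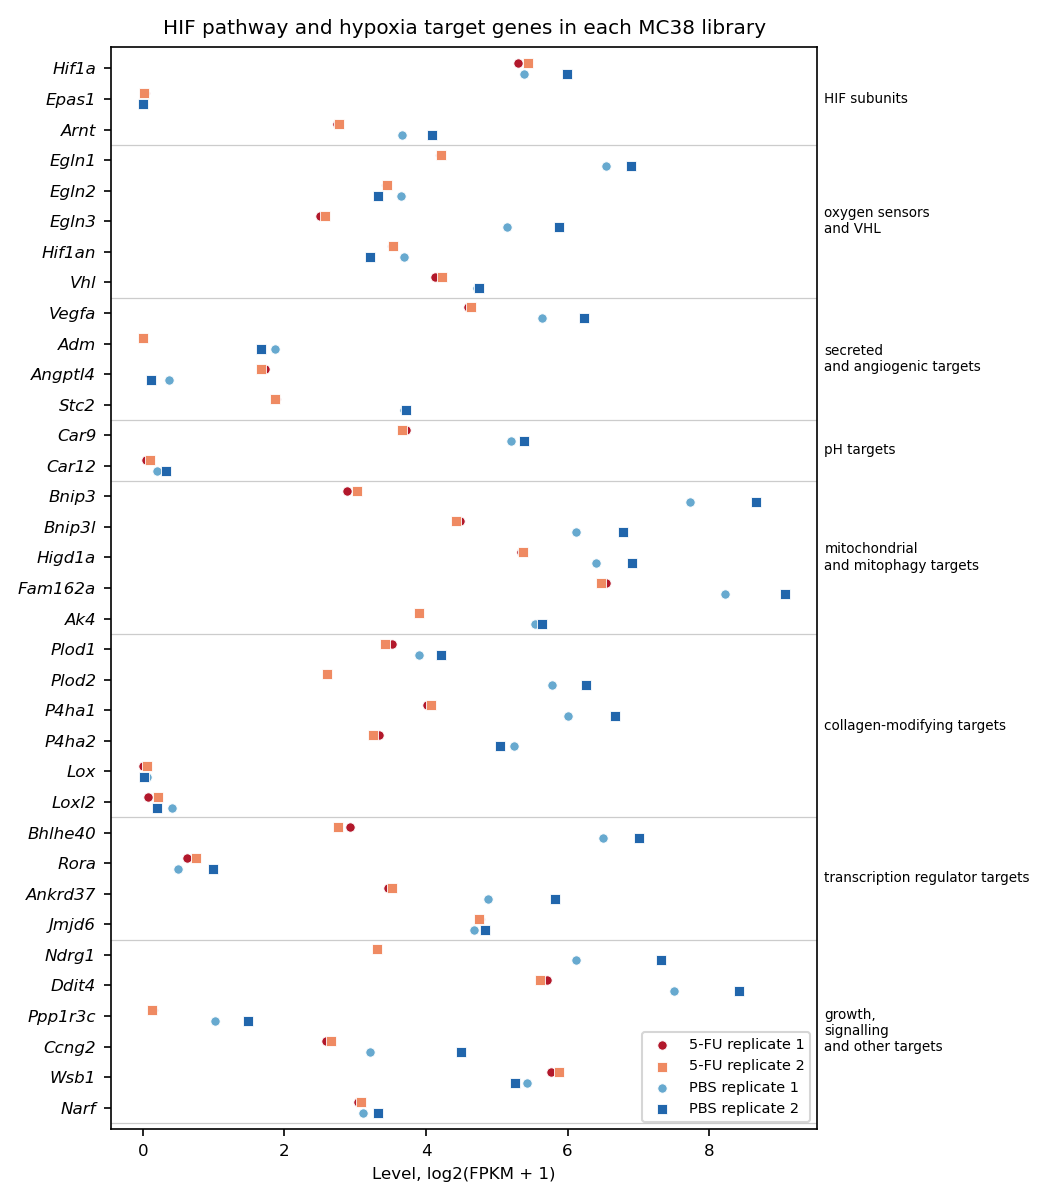
Level of each of the 35 genes as log2(FPKM + 1) on the horizontal axis, with 1 point per library and genes grouped by role from top to bottom. For most targets the 2 5-FU points lie together to the left of both PBS points, and PBS replicate 2 often lies to the right of PBS replicate 1.

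The promoters of 6 members are shown because they had the largest falls among the members with a promoter window and a HIF core in it. The windows run from 250 bases before to 50 bases after the annotated start, come from RefSeq on GRCm38.p6, and read 5′ to 3′ on the gene's strand. The letters searched were ACGTG and GCGTG on either strand (CACGT and CACGC when read from the opposite strand), and capitals mark each match. A palindromic CACGTG holds ACGTG on both strands and was counted as 2 matches. The Bnip3 window is chr7:138909457-138909756 (minus strand), that of Egln3 chr12:54203825-54204124 (minus) and that of Egln1 chr8:124949205-124949504 (minus). The window of P4ha1 is chr10:59323046-59323345 (plus), that of Ddit4 chr10:59951721-59952020 (minus) and that of Fam162a chr16:36071512-36071811 (minus).
Bnip3: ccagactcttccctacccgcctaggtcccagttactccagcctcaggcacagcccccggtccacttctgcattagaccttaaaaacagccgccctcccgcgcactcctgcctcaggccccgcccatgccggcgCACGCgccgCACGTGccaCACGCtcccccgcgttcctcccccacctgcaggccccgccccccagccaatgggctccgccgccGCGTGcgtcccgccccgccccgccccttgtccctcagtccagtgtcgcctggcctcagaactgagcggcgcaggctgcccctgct
Egln3: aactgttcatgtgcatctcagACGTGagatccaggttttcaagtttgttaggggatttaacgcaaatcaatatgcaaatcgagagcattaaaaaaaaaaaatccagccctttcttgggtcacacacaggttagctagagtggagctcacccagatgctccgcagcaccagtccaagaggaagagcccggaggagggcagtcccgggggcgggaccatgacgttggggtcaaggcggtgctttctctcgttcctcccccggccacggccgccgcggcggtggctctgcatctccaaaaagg
Egln1: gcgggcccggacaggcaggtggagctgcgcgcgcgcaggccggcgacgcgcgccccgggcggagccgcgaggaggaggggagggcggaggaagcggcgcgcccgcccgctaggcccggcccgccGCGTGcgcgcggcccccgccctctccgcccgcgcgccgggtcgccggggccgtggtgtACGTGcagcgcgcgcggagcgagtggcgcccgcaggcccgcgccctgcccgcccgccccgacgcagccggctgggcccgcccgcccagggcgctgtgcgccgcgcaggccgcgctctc
P4ha1: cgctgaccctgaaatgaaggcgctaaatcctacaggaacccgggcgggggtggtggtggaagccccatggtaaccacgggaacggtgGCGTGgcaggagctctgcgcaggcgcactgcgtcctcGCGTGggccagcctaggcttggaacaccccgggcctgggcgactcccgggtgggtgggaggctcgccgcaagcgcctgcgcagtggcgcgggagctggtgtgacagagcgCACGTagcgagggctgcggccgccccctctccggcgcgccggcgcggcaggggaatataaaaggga
Ddit4: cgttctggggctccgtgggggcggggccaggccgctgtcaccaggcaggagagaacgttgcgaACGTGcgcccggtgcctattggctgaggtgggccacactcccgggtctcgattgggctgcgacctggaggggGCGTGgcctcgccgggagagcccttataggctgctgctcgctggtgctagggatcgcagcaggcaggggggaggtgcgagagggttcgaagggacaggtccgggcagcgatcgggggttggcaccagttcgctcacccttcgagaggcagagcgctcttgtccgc
Fam162a: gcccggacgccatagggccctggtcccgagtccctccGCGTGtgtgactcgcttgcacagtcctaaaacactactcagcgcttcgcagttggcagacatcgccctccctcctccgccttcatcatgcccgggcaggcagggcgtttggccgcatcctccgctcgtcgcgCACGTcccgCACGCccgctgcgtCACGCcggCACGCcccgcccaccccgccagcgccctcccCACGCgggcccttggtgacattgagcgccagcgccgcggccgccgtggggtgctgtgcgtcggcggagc

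The Bnip3 window holds 5 matches, of which 4 begin between 117 and 99 bases before the start, and a palindromic CACGTG is among them. In the Fam162a window 6 matches were found, in that of P4ha1 3, in those of Egln1 and Ddit4 2 each and in that of Egln3 1. Windows were at hand for 27 members, and 24 of them (88.9%) held a core, against 69.6% of the 8537 tested genes with a window and 46.7% of all 27025 genes with one. Of the 18 members with a window that fell, 17 held a core. The core was also present in windows of members that did not fall, with 3 matches for Hif1a, 2 for Jmjd6, 1 each for Narf and Ccng2, 7 over both windows of Egln2 and 6 in 1 of the 2 windows of Wsb1. A match describes the letters and does not show that HIF binds there. Bhlhe40, Bnip3l, Ndrg1, Plod2, Epas1, Lox, Loxl2 and Angptl4 had no window in the table used.

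Of the subunit genes, Arnt fell and Hif1a did not pass. Hif1a, the alpha subunit gene expressed in these cells (chromosome 12, 73901375 to 73947530, GRCm38), measured 38.3 and 42.5 FPKM in 5-FU and 41.0 and 62.4 FPKM in PBS. The groups overlapped, since 5-FU replicate 2 exceeded PBS replicate 1, and the log2 difference was -0.32 (limma 95% interval -0.91 to 0.27, adjusted p = 0.28). Its result depended on the PBS library: leaving out PBS replicate 1 gave a log2 difference of -0.62 (adjusted p = 4.63e-05), and leaving out PBS replicate 2 gave -0.02 (adjusted p = 0.808). Arnt, the stable partner, had 5.67 and 5.84 FPKM in 5-FU and 11.6 and 16.0 FPKM in PBS. Both 5-FU libraries lay below both PBS libraries, and Arnt fell by 1.12 ± 0.19 log2 (SE, n = 2 per group, adjusted p = 0.0093), with adjusted p = 0.0591 and 0.0554 without 5-FU replicates 1 and 2. Epas1, which encodes the other alpha subunit HIF-2 alpha, reached 0.0181 and 0.00913 FPKM in 5-FU, estimated at 2.11 and 1.05 fragments, against a listed 0 for each PBS library. It was not tested.

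The oxygen sensors split into those known to be HIF targets themselves, which fell most, and the others. Egln3, an inducible prolyl hydroxylase gene (chromosome 12, 54178981 to 54203860), measured 4.67 and 4.94 FPKM in 5-FU and 34.3 and 57.8 FPKM in PBS. It was 9.59-fold lower in 5-FU, a log2 difference of -2.97 ± 0.27 (adjusted p = 0.00327). Egln1, which encodes the main HIF prolyl hydroxylase (chromosome 8, 124908587 to 124949324), stood at 17.4 and 17.5 FPKM in 5-FU and at 92.5 and 119 FPKM in PBS. It fell by 2.52 ± 0.15 log2 (adjusted p = 0.0027), and for both genes the lowest PBS library exceeded the highest 5-FU library at least 5.28 times. Vhl, the substrate receptor of the ubiquitin ligase, had 16.6 and 17.7 FPKM in 5-FU and 25.4 and 26.0 FPKM in PBS. The groups did not overlap and Vhl fell by 0.56 ± 0.11 log2 (adjusted p = 0.0144), a call lost without 5-FU replicate 1 (0.239) or 2 (0.178). Egln2, the third prolyl hydroxylase gene, measured 9.86 and 9.88 FPKM in 5-FU and 11.5 and 9.02 FPKM in PBS. Hif1an, the asparagine hydroxylase gene, measured 10.4 and 10.6 FPKM in 5-FU and 11.9 and 8.28 FPKM in PBS. For both genes the 5-FU libraries lay between the PBS libraries. Neither passed (adjusted p = 0.829 and 0.767), with log2 differences of -0.04 (95% interval -0.46 to 0.37) for Egln2, which turned positive with median-ratio scaling or quantile normalization, and 0.07 (-0.44 to 0.59) for Hif1an. Without a PBS library calls appeared: Hif1an was higher without PBS replicate 1 (adjusted p = 0.00454) and Egln2 lower without PBS replicate 2 (0.0356). No subunit or sensor gene rose. At an unadjusted limma p under 0.05, 0 of the 7 tested were higher, against 3010 of all 11644 tested genes. Whether 0 of 7 differs from that share was not tested.

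**Figure D2:**
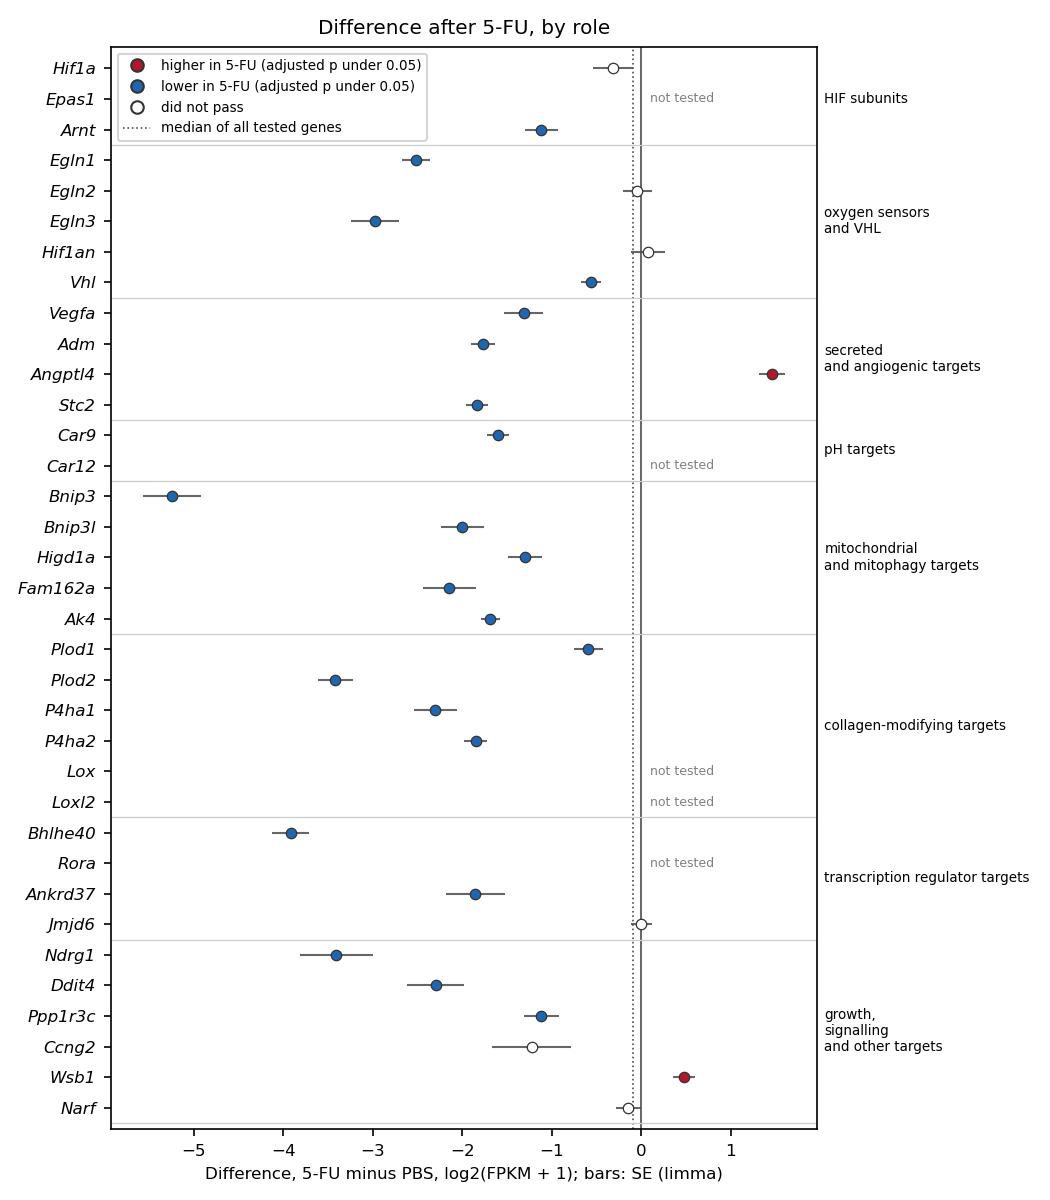
Difference between 5-FU and PBS for each tested gene on the log2(FPKM + 1) scale (points, limma estimate; bars, SE), by role from top to bottom. Blue points lie left of zero for 22 genes, red points right of it for Angptl4 and Wsb1, and the dotted line marks the median of all tested genes at -0.10.

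The mitochondrial targets fell without exception among the 5 tested. Bnip3, a mitophagy receptor gene (GRCm38 chromosome 7, bases 138890836 to 138909519), had 6.38 and 7.11 FPKM in 5-FU and 211 and 403 FPKM in PBS. In rank of level it was gene 6339 and 6031 of the 5-FU libraries and gene 211 and 108 of the PBS libraries, out of 36445. Its log2 difference of -5.24 ± 0.32 (adjusted p = 0.0027) was the lowest of all tested genes, and PBS replicate 1 alone was still 29.7 times the higher 5-FU library. The related receptor gene Bnip3l (chromosome 14, 66985239 to 67008877) measured 21.3 and 20.4 FPKM in 5-FU and 68.5 and 109 FPKM in PBS. Bnip3l was 4.26-fold lower (adjusted p = 0.00494), against 45.6-fold lower for Bnip3, and its listed pseudogene Bnip3l-ps stayed at or below 2.397 FPKM. Fam162a, a HIF-responsive mitochondrial protein gene, remained the most abundant member after 5-FU, at 92.4 and 87.8 FPKM in 5-FU and 299 and 539 FPKM in PBS. It fell by 2.14 ± 0.30 log2 (adjusted p = 0.00623). Ak4, which encodes a matrix adenylate kinase, had 13.9 and 13.9 FPKM in 5-FU and 45.5 and 48.6 FPKM in PBS, a log2 difference of -1.69 ± 0.11 (adjusted p = 0.0027). Higd1a, an inner membrane protein gene, had 39.4 and 40.4 FPKM in 5-FU and 83.4 and 119 FPKM in PBS, a log2 difference of -1.30 ± 0.19 (adjusted p = 0.00734). For all 5 the groups were separate, and PBS replicate 2 was the highest library.

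Of the 6 collagen-modifying enzyme genes 4 were tested, and these fell to different degrees. Plod2, the lysyl hydroxylase gene of collagen telopeptides (chromosome 9, 92542223 to 92608428), had 5.04 and 5.09 FPKM in 5-FU and 53.8 and 75.8 FPKM in PBS. It fell by 3.42 ± 0.19 log2 (adjusted p = 0.0027). The related Plod1 differed far less, with 10.4 and 9.66 FPKM in 5-FU and 13.9 and 17.6 FPKM in PBS. Plod1 passed at adjusted p = 0.0335 with a log2 difference of -0.59 ± 0.16, but not without 5-FU replicate 1 (0.192) or 2 (0.267), nor with median-ratio scaling (0.0728), quantile normalization (0.113) or all genes kept (0.0779). P4ha1 and P4ha2 encode the catalytic subunits of collagen prolyl hydroxylase. P4ha1 measured 15.1 and 15.7 FPKM in 5-FU and 63.3 and 101 FPKM in PBS, and P4ha2 measured 9.15 and 8.53 FPKM in 5-FU and 37.0 and 32.1 FPKM in PBS. Their log2 differences were -2.30 ± 0.24 and -1.85 ± 0.13 (adjusted p = 0.00391 and 0.0027), and P4ha2 was unlike most members in being higher in PBS replicate 1. The cross-linking oxidase genes Lox and Loxl2 stayed at or below 0.0403 and 0.333 FPKM in every library and were not tested.

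Of the secreted products, 3 fell and Angptl4 rose. Vegfa, the main vessel growth factor gene (chromosome 17, 46016993 to 46032369), had 23.3 and 23.8 FPKM in 5-FU and 48.7 and 73.9 FPKM in PBS. The groups were separate, and Vegfa was 2.61-fold lower in 5-FU (-1.31 ± 0.22 log2, adjusted p = 0.00949). Stc2, which encodes the glycoprotein stanniocalcin 2, had 2.67 and 2.64 FPKM in 5-FU and 11.9 and 12.2 FPKM in PBS, the closest PBS pair among the targets that fell (-1.83 ± 0.12 log2, adjusted p = 0.0027). Adm, the gene of the vasodilator peptide adrenomedullin, had a listed value of 0 in each 5-FU library, against 2.64 and 2.17 FPKM in PBS, an estimated 177 and 147 fragments. Its call (adjusted p = 0.00278) rests on that listing, and 3 fragments would correspond to 0.0890 and 0.0899 FPKM in the 5-FU libraries. Angptl4, an inhibitor of lipoprotein lipase that also answers to PPAR receptors, went the other way, with 2.31 and 2.18 FPKM in 5-FU and 0.293 and 0.0782 FPKM in PBS. It rose by 1.46 ± 0.15 log2 (adjusted p = 0.00381) at a low level, an estimated 171 and 159 fragments in 5-FU and 42.9 and 11.5 in PBS. Without either 5-FU library Angptl4 no longer passed the filter and was not tested.

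Among the targets of pH control, Car9, a membrane carbonic anhydrase gene widely used as a hypoxia marker (chromosome 4, 43506966 to 43513729), had 12.2 and 11.6 FPKM in 5-FU and 35.8 and 40.9 FPKM in PBS. Car9 fell by 1.60 ± 0.12 log2 (adjusted p = 0.00278), and the PBS libraries lay close together. Car9 shares 214 exonic bases with the antisense gene Gm12454 (at most 1.80 FPKM). Because any strand setting is unknown, it is not known to which gene reads in these bases were counted. The same holds for 330 bases of Hif1a shared with Gm15283 (at most 1.30 FPKM), 168 of Fam162a shared with Wdr5b (at most 0.619 FPKM) and 172 of Jmjd6 shared with Mettl23 (at most 5.31 FPKM). Bnip3 shares 504 exonic bases with Gm45507, Higd1a 683 with Gm47112 and Plod2 346 with Gm38391. These genes lie on the opposite strand and have no level in the deposited values. Car12, a second membrane carbonic anhydrase gene, was at 0.0317 and 0.0748 FPKM in 5-FU and 0.144 and 0.249 FPKM in PBS and was not tested.

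Bhlhe40 led the transcription regulators. This repressor gene (chromosome 6, 108660629 to 108666925) had 6.59 and 5.77 FPKM in 5-FU and 89.5 and 128 FPKM in PBS, and fell by 3.92 ± 0.21 log2 (adjusted p = 0.0027). Only 2 of all tested genes had lower log2 differences. Ankrd37, which encodes an ankyrin repeat protein, had 10.1 and 10.5 FPKM in 5-FU and 28.4 and 55.5 FPKM in PBS. It fell by 1.86 ± 0.33 log2 (adjusted p = 0.0109), a call lost if low genes were kept (0.0522). On the opposite strand, Ankrd37 shares 57 exonic bases with Ufsp2 and 349 with Lrp2bp (at most 56.8 and 0.178 FPKM). Jmjd6, a lysyl hydroxylase gene, measured 26.1 and 25.8 FPKM in 5-FU and 24.6 and 27.4 FPKM in PBS, with the 5-FU libraries between the PBS libraries. Its log2 difference was 0.00 (95% interval -0.30 to 0.30, adjusted p = 0.996), negative without PBS replicate 1 or 5-FU replicate 1. Rora, a nuclear receptor gene spanning 734 kb, stayed below 1 FPKM in all libraries, at 0.544 and 0.683 FPKM in 5-FU and 0.411 and 0.985 FPKM in PBS, and was not tested.

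The remaining targets act in growth control and signalling. Ndrg1, a stress-responsive gene (chromosome 15, 66929318 to 66969640), had 8.92 and 8.92 FPKM in 5-FU and 68.5 and 159 FPKM in PBS, a log2 difference of -3.41 ± 0.41 (adjusted p = 0.00489). Ddit4, which encodes the mTORC1 inhibitor REDD1, had 51.6 and 48.0 FPKM in 5-FU and 180.2 and 341 FPKM in PBS, a log2 difference of -2.29 ± 0.32 (adjusted p = 0.00626). In both genes the groups were separate although the PBS libraries differed 2.32-fold for Ndrg1 and 1.89-fold for Ddit4. Ppp1r3c, a glycogen-targeting phosphatase subunit gene, had 0.106 and 0.0892 FPKM in 5-FU, an estimated 6.01 and 5.01 fragments, and 1.02 and 1.80 FPKM in PBS. It passed (adjusted p = 0.0104) but not without 5-FU replicate 1 (0.0601) or 2 (0.0652). Ccng2, an unconventional cyclin gene, had 5.01 and 5.30 FPKM in 5-FU and 8.22 and 21.5 FPKM in PBS. The groups were separate but the PBS libraries differed 2.61-fold, and Ccng2 did not pass (log2 difference -1.23, 95% interval -2.39 to -0.07, adjusted p = 0.0713). It passed as lower with replicate number as a block (0.0132) and without PBS replicate 1 (3.43e-08) or 2 (0.000215). Wsb1, a SOCS-box ubiquitin ligase receptor gene, rose, with 53.6 and 57.6 FPKM in 5-FU and 42.1 and 37.4 FPKM in PBS (0.48 ± 0.12 log2, adjusted p = 0.0272). Its call was lost without 5-FU replicate 1 (0.218) or 2 (0.315), with quantile normalization (0.0599) and with no filter (0.0523). Narf, which encodes a prelamin A-binding protein, had 7.24 and 7.51 FPKM in 5-FU and 7.60 and 8.97 FPKM in PBS. It did not pass (log2 difference -0.15, 95% interval -0.51 to 0.22, adjusted p = 0.415), turned positive with quantile normalization, and was lower without PBS replicate 1 (0.0177).

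The PBS libraries are given separately because they differed in these genes. PBS replicate 2 was higher than PBS replicate 1 in 24 of the 30 tested members, by a median of 0.45 log2 over the members, whereas it was higher in 42.4% of all tested genes, with a median of -0.07. Between the 5-FU libraries replicate 2 was higher in 17 of the 30, against 5957 of all 11644 tested genes. The members' median there was 0.01, against 0.003 over all tested genes, and no member differed by more than 0.17 log2. The widest PBS gaps were those of Ccng2 (1.29 log2) and Ndrg1 (1.20 log2), followed by Ankrd37 (0.94), Bnip3 (0.93) and Ddit4 (0.92). The order of both 5-FU libraries below PBS replicate 1 and PBS replicate 1 below PBS replicate 2 held for 22 members, against 23.8% of all tested genes. Both 5-FU libraries lay below both PBS libraries in 24 members, against 45.1% of all tested genes. In 18 of the 22 members that fell, PBS replicate 1 or 2, whichever was lower, was at least 2 times the higher 5-FU library. The others were Arnt (1.99 times), Vhl (1.44), Plod1 (1.33) and Adm, for which the 5-FU value is 0. These 22 had already been called lower, and the same count was not taken over all tested genes. Against PBS replicate 1 alone the median log2 difference of the members still tested was -1.45, and against PBS replicate 2 alone it was -1.74. What made the PBS libraries differ was not tested.

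**Figure D3:**
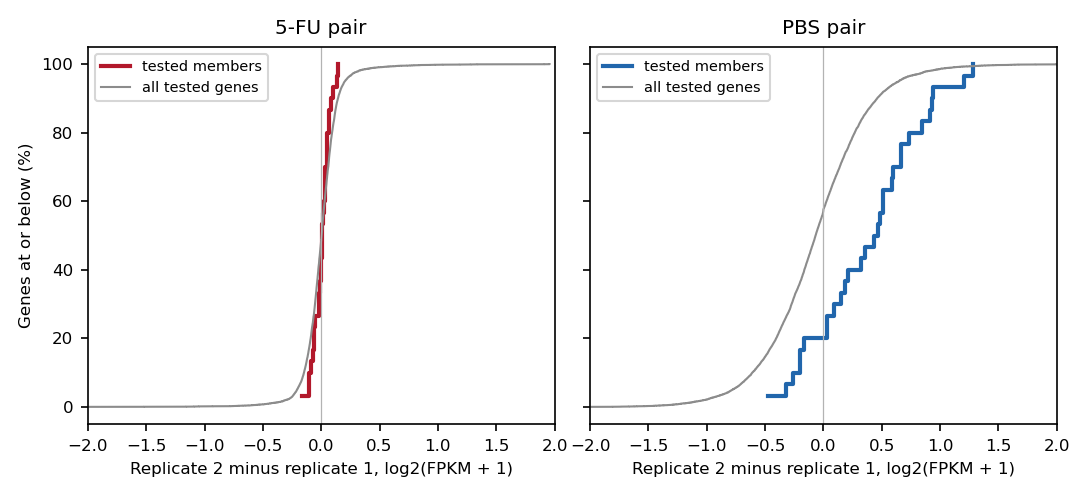
Cumulative share of genes (vertical axis, %) by the difference between replicate 2 and replicate 1 on the log2(FPKM + 1) scale, for the 5-FU pair (left) and the PBS pair (right), drawn between -2 and 2. The members follow all tested genes in the 5-FU pair, with a median of 0.01, and lie to the right of them in the PBS pair, with a median of 0.45 against -0.07.

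Further genes of the pathway came from lists of other HIF regulators and other reported targets. The 14 other regulators gave 12 tested genes, of which 3 fell and 2 rose, leaving 7 that did not pass. Over all tested genes 31.2% were lower and 22.1% were higher. The median log2 difference of the 12 tested regulators was 0.23. With median-ratio scaling 6 rose and 3 fell, and with quantile normalization 4 rose and 2 fell. Cited2, which encodes a HIF-induced competitor for the coactivators CBP and p300, had 46.0 and 47.0 FPKM in 5-FU and 264 and 337 FPKM in PBS. Cited2 fell by 2.65 ± 0.15 log2 (adjusted p = 0.0027), against a log2 difference of -2.52 for Egln1. Siah2 and Siah1a, ubiquitin ligase genes whose products turn over the prolyl hydroxylases, fell by 0.79 and 0.69 log2 (adjusted p = 0.00815 and 0.0173). Crebbp, the gene of CBP, rose by 1.24 log2 and Elob, an adaptor of the VHL ligase, by 0.71 log2 (adjusted p = 0.0102 and 0.00847). Without 5-FU replicate 1 the calls of Siah2 (0.143), Siah1a (0.24), Crebbp (0.052) and Elob (0.159) were lost, and without 5-FU replicate 2 likewise (0.121, 0.114, 0.0556 and 0.106), as was that of Siah1a with quantile normalization (0.0592). Hif3a and Arnt2, the remaining subunit genes, stayed at or below 0.0787 and 0.0762 FPKM in all libraries and were not tested.

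Among 22 other non-glycolytic targets 15 could be tested. Of these 10 fell, against 31.2% of all tested genes, 0 rose, against 22.1%, and 5 did not pass. At an unadjusted limma p under 0.05 also 0 rose, against 3010 of all 11644 tested genes. The 10 include Tmem45a, which passed the filter only through PBS (0.896 and 0.809 FPKM in 5-FU, 1.99 and 2.27 FPKM in PBS) and was bound to differ. Over the 15 tested genes the median log2 difference was -1.59, close in value to that of the members. Ero1l, an oxidase gene of the endoplasmic reticulum, had 33.1 and 33.1 FPKM in 5-FU and 179 and 507 FPKM in PBS (-3.15 ± 0.50 log2, adjusted p = 0.00855). Nos2, the inducible nitric oxide synthase gene, had 4.81 and 4.03 FPKM in 5-FU and 25.8 and 60.0 FPKM in PBS (-2.90 ± 0.41 log2, adjusted p = 0.00652). Kdm4b, a histone demethylase gene, had 2.26 and 1.82 FPKM in 5-FU and 17.3 and 22.8 FPKM in PBS (-2.78 ± 0.19 log2, adjusted p = 0.0027). Here too PBS replicate 2 was higher in 13 of the 15, against 42.4% of all tested genes.

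The glycolytic targets gave 21 tested genes out of 21. Of these 15 fell, against 31.2% of all tested genes, 0 rose, against 22.1%, and 6 did not pass. At an unadjusted limma p under 0.05 also 0 rose, against 3010 of all 11644 tested genes. The 15 include Slc2a3, which likewise passed the filter only through PBS (0.337 and 0.393 FPKM in 5-FU, 1.46 and 2.27 FPKM in PBS). Over all 21 the median log2 difference was -1.06, against -1.77 for the 23 tested non-glycolytic target members. Whether these medians differ beyond chance was not tested. Pdk1 (the kinase that closes pyruvate entry to the citric acid cycle), Slc2a1 (a glucose transporter) and Slc16a3 (a lactate exporter) had the lowest log2 differences, at -3.31, -2.97 and -2.61 (adjusted p = 0.0027, 0.00377 and 0.0027).

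**Figure D4:**
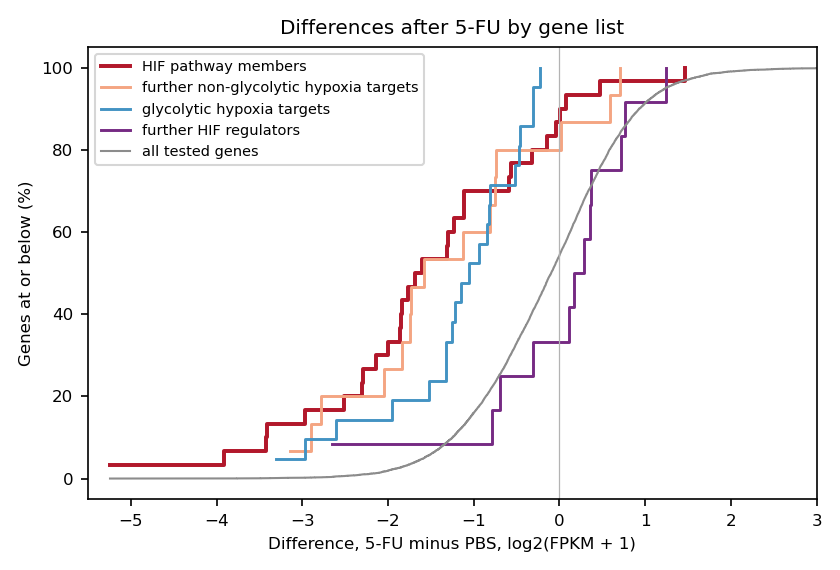
Cumulative share of genes (vertical axis, %) by the difference between 5-FU and PBS on the log2(FPKM + 1) scale, for the tested HIF pathway members, the 3 further lists and all tested genes (drawn up to 3). Medians are -1.65 for the members, -1.59 for the further non-glycolytic targets, -1.06 for the glycolytic targets, 0.23 for the further regulators and -0.10 for all tested genes.

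Gene length moved with the response over the tested protein-coding genes. Among these, 25.3% of the 2509 spanning under 10 kb were lower, and 28.3% of the 5120 spanning 10 to 50 kb. The share was 47.5% for the 2359 spanning 50 to 200 kb and 61.1% for the 378 spanning at least 200 kb. Of the 12 tested members under 10 kb, 8 fell, as did 11 of 15 between 10 and 50 kb and 3 of 3 (Arnt, Plod2 and P4ha1) between 50 and 200 kb, and no tested member spanned 200 kb.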

How the data were processed

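Per the labels' protocols, RNA was extracted with TRIzol and libraries were made by selection of polyadenylated RNA. The authors deposited 1 table of FPKM values for 36445 genes in 4 libraries. Per the submitters' processing notes, STAR 2.4.1a, Picard 2.9.0 and build GRCm38 were used, with no role stated. For the read counter, the annotation release and any strand setting, the sources used here give nothing.

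Gene IDs were matched to GENCODE M21 on GRCm38 (36379 found), which gave coordinates and exonic lengths. Depth was estimated from the commonest smallest step of FPKM times length. With these depths, 63.1% to 65.1% of values below 100 fragments lay within 0.02 of a whole fragment. Fragment numbers are thus estimates, and floors of 3 fragments cover counting error only. The 11644 genes reaching 1 FPKM in 2 or more libraries were fitted in R 4.3.3 with limma 3.58.1 (lmFit, eBayes with trend, two-sided) on log2(FPKM + 1), which understates changes of low genes. P-values were adjusted over all tested genes, and a threshold of 0.05 was used. Folds divide group means of FPKM. With 2 libraries per group the smallest exact two-sided permutation p is 0.333, so no such test was run. The fit was tested on simulated data. Lists were described by counts and medians.

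The members and lists were chosen with earlier results of these data known. Every member is accounted for by name, and those with a mean of at least 5 FPKM in a group get their values per library. In each further list, up to 3 genes past the threshold per direction are named, and Hif3a, Arnt2 and Cited2 whatever their values. Promoters are shown for up to 6 members past the threshold with a core, by size of difference. Alternatives were pseudocounts of 0.1 and 0.5, no filter, a stricter filter (mean of 5 FPKM or more), quantile normalization, median-ratio scaling, an untrended eBayes fit, the replicate number as a block, and each library left out in turn, with a lone library assumed to vary like the other group. A marker gene that was checked is not reported here.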

Additional observations from a re-analysis of the deposited data

How the results depend on the processing

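Of the 24 members past the threshold, none lost its call with either other pseudocount, without the intensity trend, with a mean of at least 5 FPKM or with the replicate block, among those still tested. Without either PBS library none lost it among those tested, but Adm and Ppp1r3c no longer passed the filter, and the error then rests on the closer 5-FU pair. Without either 5-FU library 5 calls were lost (Arnt, Vhl, Plod1, Ppp1r3c and Wsb1). The same replicate numbers do not mark a stated pairing, and deviations of same-numbered libraries correlated at -0.01. With the replicate block 23 members were lower and 2 higher, and 3553 of all genes were lower and 2484 higher.

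The number of members lower was 20 to 23 under all 12 settings except those without a 5-FU library (18 in each). The number higher was 1 with no filter, with a mean of at least 5 FPKM and with quantile normalization, for all members and for the targets alone, and leaving out a library gave 0 to 3 and 0 to 2. Leaving out a library gave 18 to 23 members lower, 2 to 5 subunits and sensors lower and 0 to 1 higher. Over all genes 481 to 4428 were higher and 1311 to 4624 lower when a library was left out, and 2158 were lower at a mean of at least 5 FPKM, where fewer genes are tested. Other regulators numbered 6 higher with median-ratio scaling and 4 with quantile normalization. With a library left out, 0 to 8 of them were higher and 1 to 4 lower. Other non-glycolytic targets had 1 higher with no filter and with quantile normalization, and 0 to 2 with a library left out, and glycolytic targets had 9 to 19 lower then.

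Median-ratio scaling and quantile normalization moved the median of all genes by 0.11 and 0.12 log2. Relative to that median, the members' median was -1.55 in the fit as reported, and -1.54 and -1.59 with these scalings. Small log2 differences changed direction. That of Egln2 was 0.071 with median-ratio scaling, 0.17 with quantile normalization and -0.21 to 0.12 with a library left out. With a library left out, that of Hif1an was -0.16 to 0.31 and that of Jmjd6 -0.074 to 0.075, and that of Narf was 0.14 with quantile normalization. The cause was not tested. Members below 1 FPKM in at least 3 libraries were left out by the filter and not tested, and of these Epas1 and Lox had at most an estimated 2.11 and 7.95 fragments in a library.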

Other observations

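A pair of iron-related genes among the other reported HIF targets, picked after their values were seen, had the widest gaps of that list between the PBS libraries, in opposite directions. Hmox1, which encodes the heme-degrading enzyme heme oxygenase 1, had 184 and 181 FPKM in 5-FU and 344 and 1080.4 FPKM in PBS replicates 1 and 2 (limma adjusted p = 0.0525). Tfrc, the transferrin receptor gene that brings iron into cells, had 106 and 119 FPKM in 5-FU and 107 and 43.7 FPKM in PBS replicates 1 and 2 (limma adjusted p = 0.224). Neither passed the threshold.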
